A study of Homo sapiens with 3 samples.

Results

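BHLHE40 and the core genes of the circadian clock were read in HEK293T, a widely used cell line of human embryonic kidney origin with SV40 large T antigen, after stable transduction with 1 of 3 lentiviral constructs. The members were 10 genes fixed by name: the repressors BHLHE40 and BHLHE41, the period genes PER1, PER2 and PER3, the cryptochromes CRY1 and CRY2, the REV-ERB receptors NR1D1 and NR1D2, and the activator BMAL1. A gene was read through probe sets annotated to it alone, taking the one with the highest mean. That gave values for 9 of the 10 members, out of 22395 genes in all. Both NR1D1 probe sets are annotated to THRA as well, so NR1D1 has no value here. The members were chosen by name with the log2 values of all 3 arrays and their differences known, so every difference below is a description and none is tested.

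The groups were cells transduced with pCDF1-TRAF7 G536S, cells with pCDF1-TRAF7 wild type and cells with the empty pCDF1 vector. All were grown in DMEM with serum, proliferating asynchronously, and selected in puromycin, which the empty vector cells received too. TRAF7 attaches ubiquitin to other proteins through its RING finger, and G536S is a substitution in its WD40 repeats. Each group has 1 array, from 1 stable culture as far as the labels say. No label gives the hour of harvest.

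The circadian clock is a transcriptional loop present in most human cells. A dimer of CLOCK and BMAL1 binds E-box sequences and activates PER, CRY, REV-ERB and BHLHE40/41 genes, and PER and CRY proteins return to the nucleus to repress that dimer. BHLHE40 and BHLHE41 (DEC1 and DEC2) are basic helix-loop-helix repressors that bind the same E-boxes, and REV-ERB receptors repress BMAL1 through elements shared with the ROR activators. Several members also answer signals outside the clock: BHLHE40 is induced by hypoxia, and PER1 by cAMP and by glucocorticoids. In a culture whose cells are not set to a common phase, bulk RNA averages over the phases of the cells.

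The proximal promoters of BHLHE40, PER1, BHLHE41 and PER2 are shown as examples that hold a match to an E-box or a variant of it. They do not stand for the members that differed most. BMAL1, with a wider range over the arrays (0.43) than BHLHE41 (0.31) or PER2 (0.30), held neither box, nor did PER3, and their promoters are not shown. The bases before the annotated start, 250 in each, come from RefSeq (GRCh38.p14), 5′ to 3′ on the gene's strand, with an E-box (CACGTG) or E-prime box (CACGTT, on either strand) in capitals. BHLHE40 lies on the plus strand, chr3:4979187-4979436. PER1, BHLHE41 and PER2 lie on the minus strand, at chr17:8152405-8152654, chr12:26125038-26125287 and chr2:238288611-238288860.
BHLHE40: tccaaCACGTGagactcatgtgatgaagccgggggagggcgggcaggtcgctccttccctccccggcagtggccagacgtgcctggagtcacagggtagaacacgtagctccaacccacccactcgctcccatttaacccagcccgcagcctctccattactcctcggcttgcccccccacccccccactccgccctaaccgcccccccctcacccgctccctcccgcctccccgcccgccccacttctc
PER1: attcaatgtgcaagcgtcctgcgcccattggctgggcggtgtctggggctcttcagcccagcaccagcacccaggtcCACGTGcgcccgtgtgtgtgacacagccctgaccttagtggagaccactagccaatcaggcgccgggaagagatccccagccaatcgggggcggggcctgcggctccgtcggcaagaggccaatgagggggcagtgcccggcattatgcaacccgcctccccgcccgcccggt
BHLHE41: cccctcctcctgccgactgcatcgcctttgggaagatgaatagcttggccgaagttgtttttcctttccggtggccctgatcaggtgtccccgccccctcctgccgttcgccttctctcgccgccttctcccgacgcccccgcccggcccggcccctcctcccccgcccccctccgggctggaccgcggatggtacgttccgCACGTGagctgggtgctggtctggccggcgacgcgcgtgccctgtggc
PER2: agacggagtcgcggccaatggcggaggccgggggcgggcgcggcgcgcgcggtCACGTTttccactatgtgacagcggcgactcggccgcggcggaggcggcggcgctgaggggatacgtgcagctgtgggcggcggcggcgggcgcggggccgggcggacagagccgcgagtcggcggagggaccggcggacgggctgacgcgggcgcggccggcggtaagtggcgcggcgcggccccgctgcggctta

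Values are log2 intensities from RMA, the authors' background correction, between-array normalization and probe summary, and a difference of 1 is 2-fold. The construct was read first. TRAF7 read 7.35 with G536S, 8.11 with wild type and 5.66 with the vector alone, so both construct arrays stood above the empty vector. The difference was -0.76 for G536S minus wild type (1.69-fold lower). In that comparison the TRAF7 RNA level and the substitution differ together, and their parts in any value below cannot be separated. Of 10 measured HEK293T markers 7 passed the filter on level used below, led by the intermediate filament gene INA (6.35, 6.26 and 6.25 in the same order), while PAX8, NEFM and KRT8 did not. None of the 4 endothelial or 4 hepatocyte markers measured passed it. Of the fibroblast markers 1 of 5 passed (COL1A1, 2.47, 2.60 and 2.59), and of the leukocyte markers 1 of 5 (CORO1A, 2.17, 1.24 and 2.46). CORO1A was lowest with wild-type TRAF7, and its part in the clock values was not tested; in bulk RNA fewer cells of a type and less RNA per cell cannot be told apart.

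BHLHE40 varied most of the 9 members. Its probe set (16937024) read 2.76 with G536S, against 3.91 with wild-type TRAF7 and 3.79 with the vector. The G536S array stood apart below the other two, which lay close together. The difference was -1.04 for G536S minus empty vector (2.05-fold lower), -1.16 for G536S minus wild type (2.23-fold lower) and 0.12 for wild type minus empty vector, a value that turned to -0.012 after quantile normalization and to -0.0012 after cyclic loess.

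BHLHE41, the paralogue of BHLHE40, had the same order of arrays with smaller gaps, an order that NR1D2 also had. BHLHE41 read 1.58 with G536S, 1.88 with wild-type TRAF7 and 1.86 with the vector. Wild type minus empty vector was 0.02, which turned to -0.099 after quantile normalization and to -0.064 after cyclic loess. Its G536S differences were -0.29 against the empty vector and -0.31 against wild type, short of 1.5-fold.

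PER1, a period gene that responds rapidly to cAMP and steroid signals, was lowest in the same array as BHLHE40 but had another pattern. Its level was 3.84 with G536S, 4.13 with wild-type TRAF7 and 4.55 with the vector. Here the empty vector array stood highest and the wild-type array lay between the others. The differences were -0.71 for G536S minus empty vector (1.64-fold lower), -0.42 for wild type minus empty vector and -0.29 for G536S minus wild type.

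**Figure D1:**
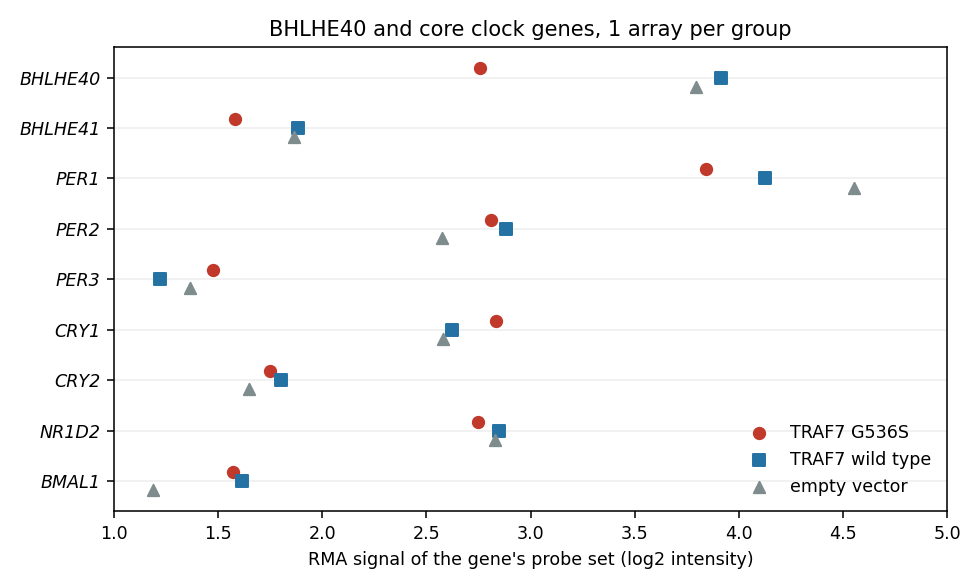
RMA signal (x axis, log2 intensity) of the probe set of each of the 9 measured members (rows), with 1 point per array: red circles TRAF7 G536S, blue squares TRAF7 wild type, grey triangles empty vector. BHLHE40 has its G536S point at 2.76, away from 3.91 and 3.79, and PER1 runs in steps of 3.84, 4.13 and 4.55; points of different genes are not comparable in height.

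The other period genes did not share the order of PER1. PER2, the period protein at the core of the repressive complex, read 2.81 with G536S, 2.88 with wild-type TRAF7 and 2.58 with the vector. Both construct arrays were above the vector, by 0.23 for G536S and 0.30 for wild type. These differences shrank to 0.079 and 0.15 after quantile normalization, and to 0.11 and 0.19 after cyclic loess. PER3, a period protein with a lesser part in the loop, read 1.48, 1.22 and 1.36 in the same order of arrays and was near the level of the median gene. Its differences were 0.11 for G536S and -0.14 for wild type against the empty vector, and 0.25 for G536S minus wild type.

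The cryptochromes, the stronger repressors of CLOCK and BMAL1, differed little. CRY1 read 2.83 with G536S, 2.62 with wild-type TRAF7 and 2.58 with the vector. That placed G536S higher by 0.25 than the empty vector and by 0.21 than wild type. The 0.25 became 0.095 after quantile normalization and 0.13 after cyclic loess. Wild type was higher than the vector by 0.04, a difference that became -0.12 after quantile normalization and -0.074 after cyclic loess. CRY2 read 1.75, 1.80 and 1.65 in the same order. Its differences from the empty vector were 0.10 for G536S, which turned to -0.019 after quantile normalization, and 0.16 for wild type. A second CRY2 probe set (16724190) lay lower, at 0.83, 0.86 and 0.88.

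NR1D2 (REV-ERB beta), a repressor of BMAL1 transcription, had the narrowest range of the members. It read 2.75 with G536S, 2.85 with wild-type TRAF7 and 2.83 with the vector, a spread of 0.10. BMAL1, the partner of CLOCK and a target of that repressor, read 1.57 with G536S, 1.62 with wild-type TRAF7 and 1.19 with the vector. Both construct arrays were above the empty vector, by 0.39 for G536S and 0.43 for wild type, and differed from each other by -0.04. BMAL1 is at the low end of the filter, and its empty vector value lies below the filter level of 1.21. Neither difference from the vector reached 1.5-fold. Relative to the median gene these differences were 0.29 for G536S and 0.35 for wild type.

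These values were read against all genes whose mean level was at or above that of the median gene (1.21). All 9 measured members are among the 11198 genes that passed, and only BHLHE40 and PER1 have means (3.49 and 4.17) above the 75th percentile of 2.87. For G536S minus empty vector, 2 of 9 members (BHLHE40 and PER1) were at least 1.5-fold lower and 0 at least 1.5-fold higher, beside 2.08% and 6.07% of all genes. At 2-fold, 1 member (BHLHE40) was lower, beside 0.268% of all genes. For G536S minus wild type, 1 of 9 (BHLHE40) was at least 1.5-fold lower, and it was also past 2-fold, beside 1.81% and 0.268% of all genes, and 0 were higher, beside 2.17%. For wild type minus empty vector, 0 of 9 were apart by 1.5-fold, beside 5.42% of all genes higher and 1.79% lower. The members were named with these differences known, so the counts describe the list and show nothing particular to it.

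Relative to the median gene, the G536S minus empty vector difference was -1.13 for BHLHE40 and -0.81 for PER1. The members as a set lay close to the median gene. Their median difference was 0.10 for G536S minus empty vector, beside 0.10 over all genes passing the filter. It was 0.04 for wild type minus empty vector, beside 0.08, and -0.07 for G536S minus wild type, beside 0.01. For G536S minus empty vector 5 of 9 members were above 0, where 63.9% of all genes were; for wild type minus empty vector 7 of 9, where 62.6% were; and for G536S minus wild type 2 of 9, where 51.4% were. Each pair of comparisons shares an array. The range over the 3 arrays had a median of 0.303 for the members and 0.299 for all genes.

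**Figure D2:**
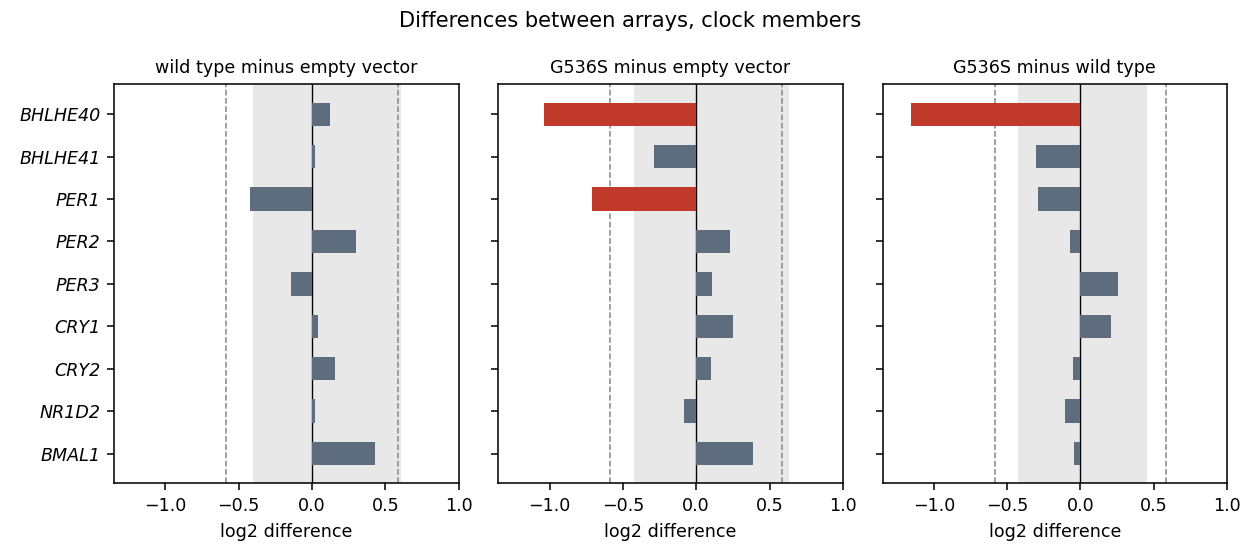
Log2 difference between arrays (x axis) for the 9 members (rows) in the 3 comparisons (panels). Bars in red are at least 1.5-fold apart (dashed lines), and the grey band spans the 5th to 95th percentile of all 11198 genes passing the filter. BHLHE40 lies below the band in the 2 panels with G536S. PER1 lies below it for G536S minus empty vector and just below it for wild type minus empty vector (-0.42, with 4.2% of genes lower).

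Placed among all genes, BHLHE40 was near the bottom of the G536S comparisons. Only 17 of 11198 genes had a lower G536S minus wild type difference, and 29 had a lower G536S minus empty vector difference. In the wild type minus empty vector comparison it sat mid-list, with 6276 genes lower. Its range over the 3 arrays was exceeded by 119 genes, or 1.06%. PER1 had 124 genes below it for G536S minus empty vector, 472 for wild type minus empty vector and 1191 for G536S minus wild type. The range was exceeded by 28.5% of genes for BMAL1 and by 48.5% to 90.7% for the other 6 members.

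Genes of similar level gave nearly the same picture. The genes that passed the filter were split by mean level into 4 equal bins, and BHLHE40 and PER1 fall in the third, with 2799 genes. In that bin the 5th to 95th percentiles ran from -0.46 to 0.71 for G536S minus empty vector, and both genes lay below. For G536S minus wild type they ran from -0.46 to 0.47, with BHLHE40 below and PER1 within. For wild type minus empty vector they ran from -0.44 to 0.69. PER1 at -0.42 was just inside, though it lay below the 5th percentile of all genes passing the filter. The other 7 members were within the percentiles of their own bins in all 3 comparisons, with BMAL1 closest to an edge (0.429 against a 95th percentile of 0.432 for wild type minus empty vector).

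**Figure D3:**
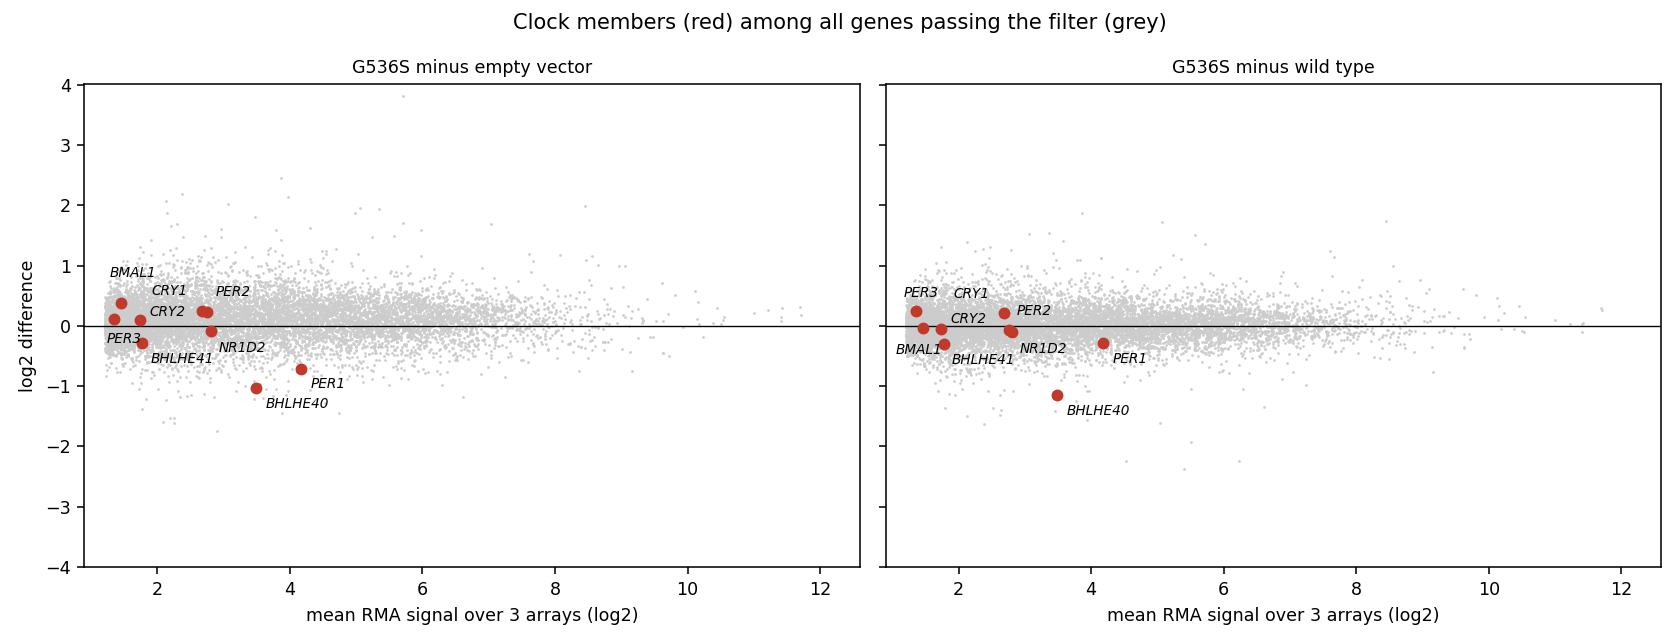
Log2 difference (y axis) against the mean RMA signal over the 3 arrays (x axis, log2) for all 11198 genes passing the filter (grey) and the 9 members (red, named), for G536S minus empty vector (left) and G536S minus wild type (right). BHLHE40 lies at the lower edge of the cloud in both panels (-1.04 and -1.16), PER1 in the left one (-0.71), and the other members inside it.

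The E-box and E-prime box were then searched for in all 10 members. No link between a match and a difference between arrays was tested. Windows from 250 bases before to 50 after the start were searched on both strands in 14 RefSeq windows of the 10 members, some of which have more than 1 start, and in all 35116 windows. The E-box occurred in 4 of the 14, at -245 in BHLHE40, -173 in PER1, -48 in BHLHE41, and at -155 and -105 in the second NR1D2 window, counting the base before the start as -1. Of all windows 7.26% held one. The first NR1D2 window held no E-box, and which start the cells use was not tested. The E-prime box was in windows of PER2 (-197), CRY1 (-89), CRY2 (-188) and NR1D1 (-168), beside 5.34% of all windows.

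Other elements of the loop were sparser. The ROR and REV-ERB response element (RORE) was found in a BMAL1 window, at 27 bases from the start, and in the second NR1D2 window (-133), beside 0.316% of all windows. The D-box read by DBP and NFIL3 was found as TTATGTAA in PER3 (-177) and NR1D2 (-194), beside 0.886% of all windows, and as TTACGTAA in PER2 (-3), beside 0.125%. The full cAMP response element TGACGTCA was in 0 of the 14 and in 1.85% of all windows. The hypoxia response core ACGTG, which is contained in every E-box and E-prime box, was in 9 of the 14, beside 21.4%. Outside those boxes it lay at -174 and -149 in BHLHE40, -134 in PER2 and +39 in NR1D1. CRY2 also had it outside them, at +31 in the first window and -35 in the second. A match is only a run of letters in the window and shows no binding.

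**Figure D4:**
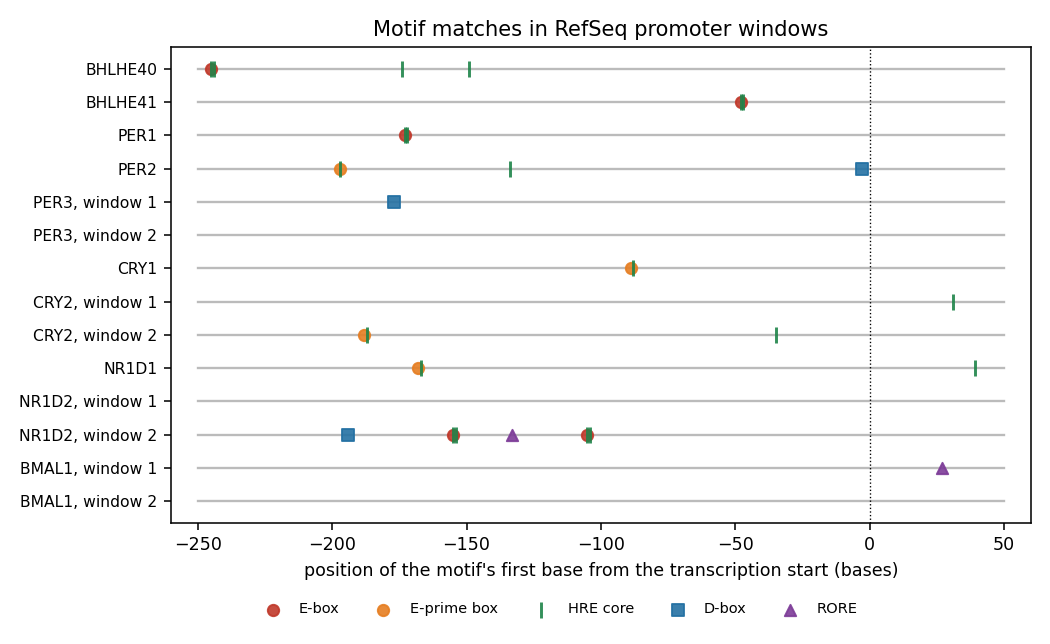
Position of motif matches (x axis, bases from the transcription start) in the 14 RefSeq promoter windows of the 10 members (rows, grey lines from 250 bases before to 50 after the start). Red circles are E-boxes, orange circles E-prime boxes, green ticks hypoxia response cores, blue squares D-boxes and purple triangles ROREs; E-boxes appear in BHLHE40, BHLHE41, PER1 and the second NR1D2 window.

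The genes around the members in the loop were then read from 4 lists, of which 26 of 30 genes were measured. For G536S minus empty vector 3 were at least 1.5-fold higher and 0 lower, for wild type minus empty vector 1 was higher and 0 lower, and for G536S minus wild type 0 were higher and 1 lower. Over all genes passing the filter, as 24 of the 26 did, the shares higher and lower were 6.07% and 2.08%, 5.42% and 1.79%, and 2.17% and 1.81% in these comparisons. Medians were 0.14, 0.08 and 0.08. Among the activators and nuclear receptors 0 of 5 were 1.5-fold apart in any comparison. CLOCK, the partner of BMAL1, read 5.05 with G536S, 4.95 with wild-type TRAF7 and 4.76 with the vector, and NPAS2, which can stand in for CLOCK, read 2.77, 2.89 and 2.98.

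The list of output factors and CIART holds 5 genes in all, of which 1 was apart. Of the 5, 3 passed the filter, and TEF and CIART did not. NFIL3, the bZIP repressor that acts on D-boxes, read 1.76 with G536S, 2.41 with wild-type TRAF7 and 1.54 with the vector. The wild-type array stood above both others, with differences of 0.87 for wild type minus empty vector and -0.65 for G536S minus wild type. DBP, the activator on the same element, read 4.45, 4.78 and 4.49 in the same order of arrays, and was not 1.5-fold apart in any comparison. Its differences from the empty vector were 0.29 for wild type and -0.04 for G536S. For G536S minus wild type it was -0.34, with 8.1% of genes lower.

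None of 9 kinases, ligases and proteases that act on PER and CRY proteins was 1.5-fold apart. This list holds the casein kinases CSNK1D and CSNK1E, whose differences from the empty vector were -0.16 and 0.16 for G536S and -0.23 and 0.03 for wild type. The highest difference of the list was 0.57 for G536S minus empty vector, in FBXL21P, a pseudogene in the annotation. The lowest, -0.52 in the same comparison, was that of USP2, a deubiquitinase. Both are named after their values were seen. FBXL21P passed the threshold after median centring (0.597), and USP2 after quantile normalization (-0.68) and cyclic loess (-0.64).

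Complex partners and corepressors held the 3 genes that were higher with G536S than with the empty vector. HDAC3, the deacetylase that REV-ERB recruits, read 4.51 with G536S, 3.94 with wild-type TRAF7 and 3.83 with the vector, a difference of 0.68 for G536S minus empty vector. TIPIN, the partner of TIMELESS at replication forks, read 4.67, 4.42 and 4.02 (0.65), and WDR5, a histone methyltransferase subunit found with PER complexes, read 3.92, 3.64 and 3.28 (0.64). All 3 calls were lost after quantile normalization (0.52, 0.51 and 0.47) and after cyclic loess (0.55, 0.52 and 0.51).

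**Figure D5:**
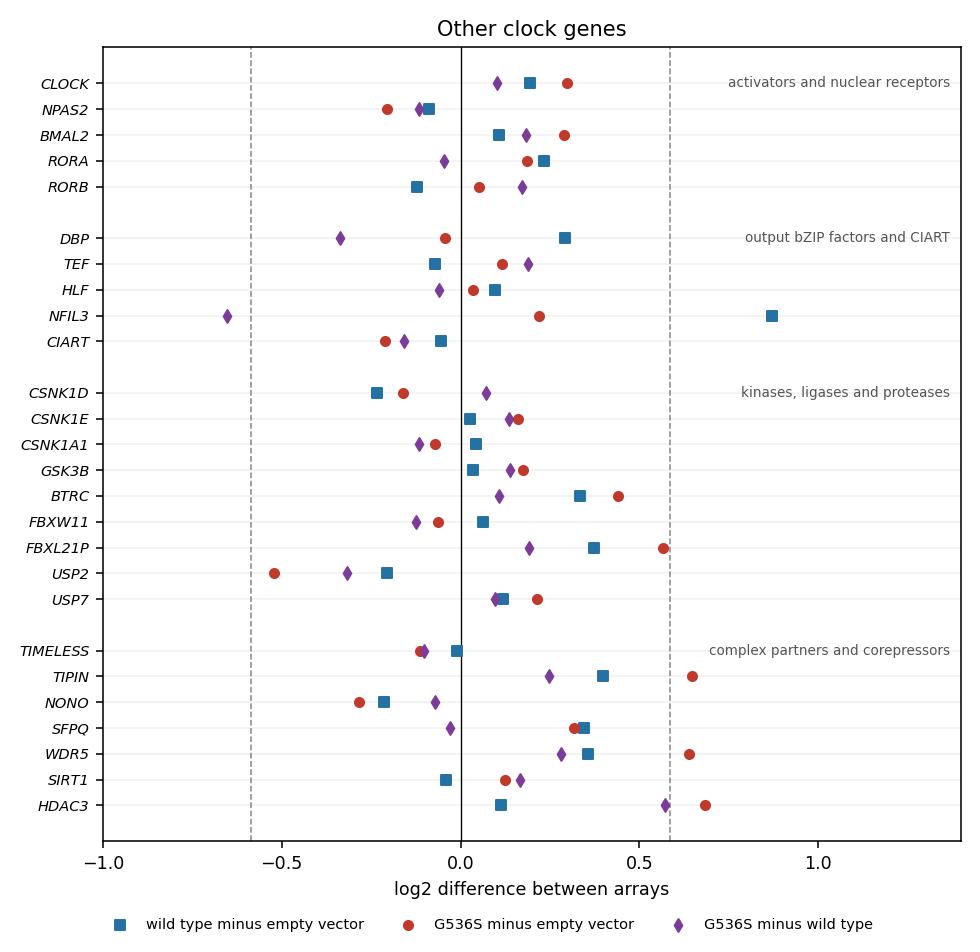
Log2 difference between arrays (x axis) for 26 other clock genes (rows, in 4 lists): blue squares wild type minus empty vector, red circles G536S minus empty vector, purple diamonds G536S minus wild type, with dashed lines at 1.5-fold. NFIL3 passes the line for wild type minus empty vector (0.87) and for G536S minus wild type (-0.65), and HDAC3, TIPIN and WDR5 for G536S minus empty vector.

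Relatives of BHLHE40 and genes that share its inducers or those of PER1 were read for context, with 35 of 38 measured. For G536S minus empty vector 0 were at least 1.5-fold higher and 4 lower, for wild type minus empty vector 4 higher and 1 lower, and for G536S minus wild type 0 higher and 3 lower. Over all genes passing the filter the shares higher and lower were 6.07% and 2.08%, 5.42% and 1.79%, and 2.17% and 1.81% in these comparisons. Of the 35 genes 24 passed the filter, and these 24 include every one counted as apart. Of 11 HES and HEY relatives, which share the Orange domain, HEY2 was 1.5-fold apart for wild type minus empty vector (-0.95) and HEYL for G536S minus empty vector (-0.60). HES1, a NOTCH-induced repressor, read 3.82, 3.94 and 3.93 with G536S, wild type and empty vector.

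Of the hypoxia-inducible genes 10 were measured. For G536S minus empty vector 0 were 1.5-fold apart, 4 of 10 were above 0 and the median was -0.06. For G536S minus wild type 1 was lower, 2 of 10 were above 0 and the median was -0.29. For wild type minus empty vector 2 were higher, 9 of 10 were above 0 and the median was 0.12. Over all genes passing the filter, as 8 of the 10 did, 63.9%, 51.4% and 62.6% were above 0 in these comparisons. NDRG1, a stress-induced gene, read 1.498 with G536S, 2.26 with wild-type TRAF7 and 1.43 with the vector, so its wild-type array was high. P4HA1, a collagen prolyl hydroxylase, was higher by 0.59 with wild type than with the empty vector, a call lost after quantile normalization and cyclic loess (0.48 in each).

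Of 8 genes inducible by cAMP and CREB, 1 was apart: NR4A2, an orphan nuclear receptor, read 1.01 with G536S, 1.26 with wild-type TRAF7 and 1.62 with the vector, the same order as PER1 at a level near the filter. Of 6 measured glucocorticoid-inducible genes, DUSP1, a MAP kinase phosphatase, and DDIT4, an mTORC1 inhibitor, were lower with G536S (-0.84 and -0.59) and higher with wild type (1.52 and 1.03) than with the empty vector. The G536S calls for DDIT4, NR4A2 and HEYL were lost after median centring (-0.55, -0.58 and -0.57). KLF9, another target of the receptor, read 2.85, 3.26 and 3.26 with G536S, wild type and empty vector, and TSC22D3 read 2.15, 1.81 and 1.74.

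The genes with the pattern most like that of BHLHE40 were found by the distance between pairs of differences from the empty vector (wild type and G536S), over 10056 protein-coding genes that passed the filter and the 3 arrays. The nearest were PKN3, a protein kinase (0.08 for wild type and -0.97 for G536S, distance 0.07), LDOC1 (0.08 and -0.97, distance 0.08), YIF1B, a Golgi membrane protein (0.16 and -1.19), GRN, the progranulin gene (0.12 and -0.86), and PIP4K2C, a lipid kinase (-0.06 and -0.97). For PER1 they were TMEM214, PNPLA2, the triglyceride lipase of lipid droplets, POM121, a nuclear pore gene with near-identical copies that makes its value uncertain, FRMD8 and R3HDM4, all within a distance of 0.04. Within 0.2 of BHLHE40 lay 5 genes, and within 0.2 of PER1 lay 104.

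Genes beside BHLHE40 and PER1 on the chromosome were read after the member values were seen, taking 3 measured protein-coding genes on each side. Of the 6 around BHLHE40, SETMAR, ITPR1 and EDEM1 passed the filter, with G536S minus empty vector differences from 0.08 to 0.20 and G536S minus wild type differences from -0.15 to 0.0012, against -1.04 and -1.16 for BHLHE40 itself. Around PER1, VAMP2, TMEM107 and BORCS6 passed, with G536S minus empty vector differences from -0.02 to 0.67, against -0.71 for PER1. For G536S minus wild type the range was -0.43 (VAMP2) to 0.05, against -0.29 for PER1. None of these neighbours was 1.5-fold lower in either G536S comparison, beside 2.08% of all genes against the empty vector and 1.81% against wild type. TMEM107 was at least 1.5-fold higher than with the empty vector with G536S (0.67) and with wild type (0.62), beside 6.07% and 5.42% of all genes.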

How the data were processed

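Biotin-labelled cRNA was made from 300 ng total RNA and hybridised to Affymetrix arrays, per the labels' protocols. The authors deposited log2 intensities, 1 per probe set, made with RMA, as the labels' tool list names it; its version and the build of the array are not stated in any label, and base 2 was inferred from the range. The table holds 53617 probe sets on 3 arrays, and no depth applies: the number of arrays limits the precision. The platform annotation gave 1 gene for 23871 probe sets, several for 1842 and none for 27904; symbols were updated by Entrez ID (22569 matched) through RefSeq GRCh38.p14.

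Each gene took its probe set with the highest mean. Differences are subtractions of arrays, counted from 1.5-fold (0.58 on the log2 scale). With 1 array a group no test was possible. The named genes are the members, TRAF7, genes of 8 lists that passed the filter and were 1.5-fold apart somewhere, and the 5 genes nearest each of the 2 widest-ranging members; exceptions are given in the text with the values. Members and lists were chosen with earlier results of these data known. Counting was tested on simulated data. Alternatives were the mean of probe sets, no filter, the 75th percentile, quantile normalization, median centring, cyclic loess, a floor at the 25th percentile and a 2-fold threshold; protein-coding genes alone and chromosomal neighbours were added after seeing the data. Tools were Python 3.11.15, numpy 2.4.6, pandas 2.3.3, matplotlib 3.10.9, R 4.3.3 and limma 3.58.1.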

Additional observations from a re-analysis of the deposited data

Results flagged for a closer look

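DUSP1 and DDIT4, from the glucocorticoid-inducible list, went in opposite directions with the constructs, each past 1.5-fold. DUSP1 differed from the empty vector by -0.84 with G536S and by 1.52 with wild type, and DDIT4 by -0.59 with G536S and by 1.03 with wild type. The G536S value of DDIT4 lies at the threshold and fell below it after median centring (-0.55). The difference between the constructs was not tested, since each has 1 array. No clock member went past 1.5-fold in opposite directions.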

How the results depend on the processing

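The floor could alter no member difference and the mean of probe sets only those of CRY2, so 51 of 135 recomputed values equal the reported ones. The other 84 stayed on their side of 1.5-fold and 9 of them changed sign: CRY2 for G536S minus empty vector after quantile normalization, and BHLHE40, BHLHE41, CRY1 and NR1D2 for wild type minus empty vector after quantile normalization and cyclic loess. BHLHE40 ranged from -1.18 to -1.003 for G536S minus empty vector and from -1.17 to -1.15 for G536S minus wild type, and PER1 from -0.86 to -0.68 for G536S minus empty vector. Quantile normalization moved the median of all genes by -0.13 for G536S and by -0.11 for wild type against the empty vector, and cyclic loess by -0.10 and -0.09. The median of the members then became -0.019 (quantile) for G536S minus empty vector, and -0.099 (quantile) and -0.064 (cyclic loess) for wild type minus empty vector. With the filter at the 75th percentile 2 members were left, BHLHE40 and PER1, with medians of -0.87 for G536S minus empty vector, -0.15 for wild type minus empty vector and -0.72 for G536S minus wild type, which comes from the members dropped.

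The 2-fold threshold left 1 member for G536S minus empty vector. For the other clock genes it left 0 in each comparison, and the stricter filter left 0 for wild type minus empty vector and 0 for G536S minus wild type. For G536S minus empty vector quantile normalization and cyclic loess left 1 each, USP2, in place of HDAC3, TIPIN and WDR5. Of the related and inducing genes, the count for G536S minus empty vector became 2 with the stricter filter, 1 with median centring and 0 at 2-fold, and that for wild type minus empty vector 2 at 2-fold. Among protein-coding genes alone 1.86% were 1.5-fold lower for G536S minus empty vector and 1.70% for G536S minus wild type. No paired analysis was possible because each group has 1 array, and no replicate could be left out.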
